A study of Mus musculus with 4 samples.

Results

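Cardiomyocytes carrying sarcomere transcripts of the heart chambers were selected from droplet single-cell RNA-seq of day 9 mouse embryoid bodies, in which embryonic stem cells differentiate as free clumps. A cell was selected when it had at least 500 detected genes, at most 10% of its counts from mitochondrial genes, and at least 2 raw unique molecular identifiers (UMIs, each standing for 1 captured RNA molecule) in 4 or more of the 6 genes Tnni3, Myl2, Myl3, Myh7, Myh6 and Ttn. Of 10090 cells in the table, 8876 met the limits on genes and mitochondrial counts and are termed kept cells, and 825 of these met the gene rule and are termed members. Because the 6 genes chose the cells, their levels are a description and carry no test. The embryoid bodies had been grown from control mouse embryonic stem cells or from stem cells pulsed with DUX, a transcription factor of the early mouse embryo. Each group had 2 libraries, which the series design describes as biological replicates. The strain and sex of the stem cells, the way DUX was switched on and the time from the pulse to day 9 are not given in the sources used here.

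The sarcomere is the contractile unit of heart muscle. Thick filaments of myosin heavy chains (Myh6, Myh7) and light chains (Myl2, Myl3, Myl4, Myl7) pull on thin actin filaments, the troponin complex sets the response of the thin filament to calcium, and titin (Ttn) holds the thick filament in register. During mouse heart development the isoforms are exchanged: Myl7 and Myl4 are carried by early myocardium and later by the atria, Myl2 and Myl3 mark the ventricle, troponin I passes from Tnni1 to Tnni3, and Myh6 replaces Myh7 in the ventricle around birth. Early cardiomyocytes also carry smooth muscle actin (Acta2) and transgelin (Tagln), which later decline.

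Kept cells numbered 1353 to 2824 per library, with medians of 27260 to 30402.5 UMIs per cell. Members held 1682022 to 9901968 UMIs per library in all, with medians of 22584 to 28169 UMIs, 4519 to 5207 detected genes and 4.04% to 5.09% mitochondrial counts. The medians of control and DUX-pulsed members overlapped for all of these. Libraries shared 8 cell barcodes over all pairs, and none of these was a barcode of members in both libraries. Summed UMI counts are given as CPM (counts of a gene per 1e6 counts of the library) and are not scaled to transcript length, so levels are compared between libraries and not between genes.

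Members were more frequent in the DUX-pulsed embryoid bodies. They made up 108 of 2824 kept cells in control replicate 1 (3.82%, exact binomial 95% interval 3.15% to 4.60%) and 63 of 2636 in control replicate 2 (2.39%, 1.84% to 3.05%). In DUX-pulsed replicate 1 there were 397 of 2063 (19.2%, 17.6% to 21.0%) and in replicate 2 there were 257 of 1353 (18.99%, 16.9% to 21.2%). Both DUX-pulsed libraries lay above both controls with no overlap of intervals, which cover counting error only. The group means were 3.11% ± 1.01 and 19.1% ± 0.176 (SD, n = 2 each), a ratio of 6.15 and a difference of 16.01 percentage points. The exact permutation test over the 4 libraries gave a two-sided p of 0.333, the smallest that 2 libraries against 2 allow. Shares are relative to all kept cells, so more cardiomyocytes and fewer cells of other types cannot be told apart. The rise in cardiac cells was known when the rule was written. With the rule applied after each cell was thinned to 10000 UMIs the difference was 17.7 points. Under a stricter cell filter (1000 genes, 5% mitochondrial counts) it was 10.9, and with all 6 genes required it was 11.5. The stricter filter left 644 and 523 control cells, with shares of 9.47% and 5.93%, so the groups stood closer as a ratio. The DUX-pulsed libraries had 17.8% and 19.5% of 1320 and 694 cells there. With all 6 genes the shares were 0.744% and 0.873% in controls against 12.4% and 12.2%.

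**Figure D1:**
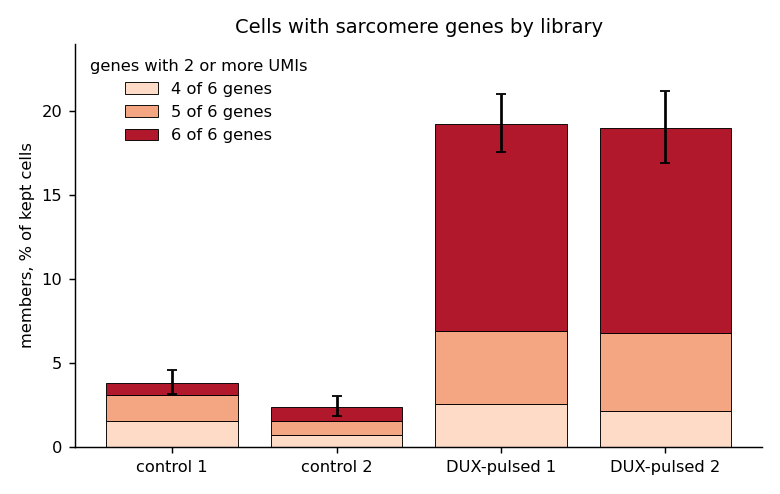
Members as a percentage of kept cells (y axis) in the 4 libraries, split by whether 4, 5 or all 6 of the rule's genes had 2 or more UMIs, with bars for the exact binomial 95% interval of the total. The totals were 3.82% and 2.39% in the controls against 19.2% and 18.99% after the pulse. The darkest segment, all 6 genes, was the largest in both DUX-pulsed libraries. In control replicate 2 it was the largest by a narrow margin, 23 cells against 22 at 5 genes.

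The libraries also differed in how fully members met the rule. All 6 genes reached 2 UMIs in 21 of the control replicate 1 members (19.4%) and 23 of the control replicate 2 members (36.5%). In the DUX-pulsed libraries the same held for 255 (64.2%) and 165 (64.2%). Just inside the rule, 44, 18, 53 and 29 members reached exactly 4 genes in control replicates 1 and 2 and DUX-pulsed replicates 1 and 2. Just outside it, 31, 33, 15 and 15 cells in the same order reached 3 genes. Control members thus stood closer to the limit of the rule than DUX-pulsed members, so results were also computed for the 464 members with all 6 genes, an alternative chosen after seeing the data. Of the named genes called in all members, 43 kept the call there with a fold within 1.5 times, 22 kept it with a fold that moved further, 38 lost it and 9 were too low to be tested.

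Tnni3 and Myl2 were the genes that members most often missed. Tnni3 (chr7:4518305-4524229, minus strand, mm10), the troponin I of the adult heart, reached 2 UMIs in 34.3% and 49.2% of control members and in 80.1% and 79.0% of DUX-pulsed members. Myl2 (chr5:122100951-122113472, plus strand), the ventricular regulatory light chain, did so in 61.1% and 66.7% against 75.6% and 75.5%. For Myl3, the ventricular essential light chain (chr9:110741861-110769798, plus strand), the shares were 92.6%, 92.1%, 98.2% and 99.2%. The heavy chains Myh7 (chr14:54970684-54994626, minus strand) and Myh6 (chr14:54941921-54966927, minus strand) and titin, Ttn (chr2:76703980-76982547, minus strand), reached it in 94.4% to 100% of members of every library. All shares of Tnni3, Myl2 and Myl3 were higher in both DUX-pulsed libraries than in both controls. With each cell thinned to 10000 UMIs (94, 59, 362 and 236 members left), a Tnni3 UMI was found in 37.2% and 44.1% of control members and 84.5% and 78.8% of DUX-pulsed members, against 44.4%, 50.8%, 88.2% and 87.5% unthinned. Endoderm and erythroid cells served as a background for free RNA in droplets. A Tnni3 UMI was found in 1.42% of 5084 endoderm cells (median 34287.5 UMIs) and 1.63% of 123 erythroid cells (median 19626 UMIs). A Myl2 UMI was found in 1.99% and 3.25%. The other genes of the rule were found more often in endoderm cells. In control replicates 1 and 2 the shares there were 27.1% and 30.5% for Myh7 and 22.7% and 17.6% for Myl3. For Myh6 they were 20.4% and 20.5%, and for Ttn 5.36% and 5.06%. In the 17 and 21 erythroid cells of these libraries they were 5.88% and 9.52% for Myh7 and 0% and 14.3% for Ttn. For Myl3 and Myh6 they were 0% in both. The erythroid cells were few and had fewer UMIs. Whether the endoderm UMIs of these genes are free RNA was not tested.

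Summed over members, the 6 genes of the rule differed unevenly between the groups. Tnni3 stood at 286 and 407 CPM in control replicates 1 and 2 and at 1118 and 719 CPM in DUX-pulsed replicates 1 and 2. Myl3 stood at 2810 and 2549 CPM in the controls and 6014 and 4061 CPM in the DUX-pulsed libraries. Both DUX-pulsed libraries were above both controls for these genes. Myl2 gave 1324 and 731 CPM against 1793 and 877 CPM, with the groups overlapping, and lies in a lowered region of chromosome 5 described with the gene counts. Myh7 gave 7094 and 5718 CPM against 5841 and 5608 CPM, and Ttn 5365 and 6637 CPM against 5641 and 6419 CPM, both overlapping. Myh6 was at 1692 and 1351 CPM in controls and 2168 and 1898 CPM in DUX-pulsed members, without overlap. In members with all 6 genes the log2 difference, DUX-pulsed over control, was 0.47 for Tnni3 and 0.37 for Myl3, against 1.41 and 0.91 in all members, and for Myl2 it was -0.35 against 0.38.

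The label of mature sarcomere genes held only in part. Tnni3 supplied 10.5% and 16.6% of the UMIs of Tnni3 and Tnni1 in control members and 31.7% and 26.3% in DUX-pulsed members, so the embryonic Tnni1 gave the larger count in every library. Myl2 supplied 10.9% and 8.06% of the UMIs of Myl2 and Myl7 in controls and 13.3% and 7.86% in DUX-pulsed members. The Myl3 share of Myl3 and Myl4 was 24.9% and 23.4% against 46.4% and 44.5%, and the Myh6 share of Myh6 and Myh7 was 19.3% and 19.1% against 27.1% and 25.3%. The Tnni3, Myl3 and Myh6 shares were higher in both DUX-pulsed libraries than in both controls, while the Myl2 share overlapped. In members with all 6 genes the Tnni3 share was 24.04% and 31.55% in controls against 37.20% and 33.07%, so the groups stood closer. The Myl3 share there was 33.75% and 29.45% against 49.48% and 48.51%. The Myh6 share was 15.81% and 17.08% against 27.18% and 24.25%. How far the different filling of the rule enters these shares was not tested further. These pairs use genes of the rule, and the shares are not corrected for transcript length, so they serve only to set libraries side by side.

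Against the other kept cells, members had the profile of striated heart muscle. With libraries weighted equally and CPM taken over raw library totals, Myl2 averaged 1162 CPM in members and 1.15 in other kept cells, a ratio of 1007, and Tnni3 622 and 1.06 CPM, a ratio of 585. Beyond the rule's genes, Cox6a2, the muscle form of a cytochrome c oxidase subunit, had a ratio of 395, cardiac actin Actc1 237, triadin (Trdn), a protein of the calcium release unit, 228, and the Z-disc protein Actn2 208. Myo18b, Mhrt (a noncoding RNA antisense to Myh7, whose reads can be told from it only if counting used strand, which is not given in the sources used here), Atcayos, Ankrd1, Asb2, Apobec2, Myl4, Myl7, Csrp3 and Ldb3 followed with ratios of 102 to 183. Another 100 kept cells were cardiac but no members, having at least 2 UMIs in each of Tnnt2, Actc1 and Tnnc1 (30, 37, 15 and 18 cells in control replicates 1 and 2 and DUX-pulsed replicates 1 and 2). Members exceeded these by 57.8 times for Myl2, 28.7 for Tnni3 and 15.5 for Myl3, and outside the rule by 14.0 for Tnnt1, the slow skeletal troponin T, 9.88 for Tesc, 7.51 for Cox6a2, 6.64 for Mhrt, 4.99 for the integrin Itga6 and 4.93 for the potassium channel subunit Kcng2. General cardiac genes differed less, with ratios of 1.98 for Tnnt2, 1.5003 for Tnni1, 2.17 for Myl7 and 1.78 for Myl4. All these ratios follow from the selection and were not tested.

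Markers of other cell types were low in members. At least 2 UMIs in 4 or more of 6 endoderm markers were found in 12 members (1.45%) against 63.7% of the other kept cells, and by like rules mesenchyme markers were found in 1 member, erythroid markers in 1 and endothelial markers in 0 of 825. A count of 0 of 825 cells allows a share of up to 0.364%. The epithelial gene Epcam, again in CPM over raw totals, was lower in members than in cells with fewer rule genes, at 496 CPM over all cells with none and 275 CPM at 3 genes against 11.2, 12.5 and 18.3 CPM at 4, 5 and 6. Over the same classes the cardiac troponin T gene Tnnt2, which the rule did not use, went from 21.0 CPM at none to 1379 CPM at 3 genes and 3747, 4378 and 3801 CPM at 4, 5 and 6. Cells just outside the limit, at 3 genes, thus stood between the members and the other cells in both genes. Acta2 had another shape: 229 CPM at none, 3898 at 3, a high of 7439 at 4, then 5564 at 5 and 2917 at 6. Control cells make up a smaller part of the cells at 6 genes, and Acta2 was lower at 6 than at 4 genes within each of the 4 libraries too.

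**Figure D2:**
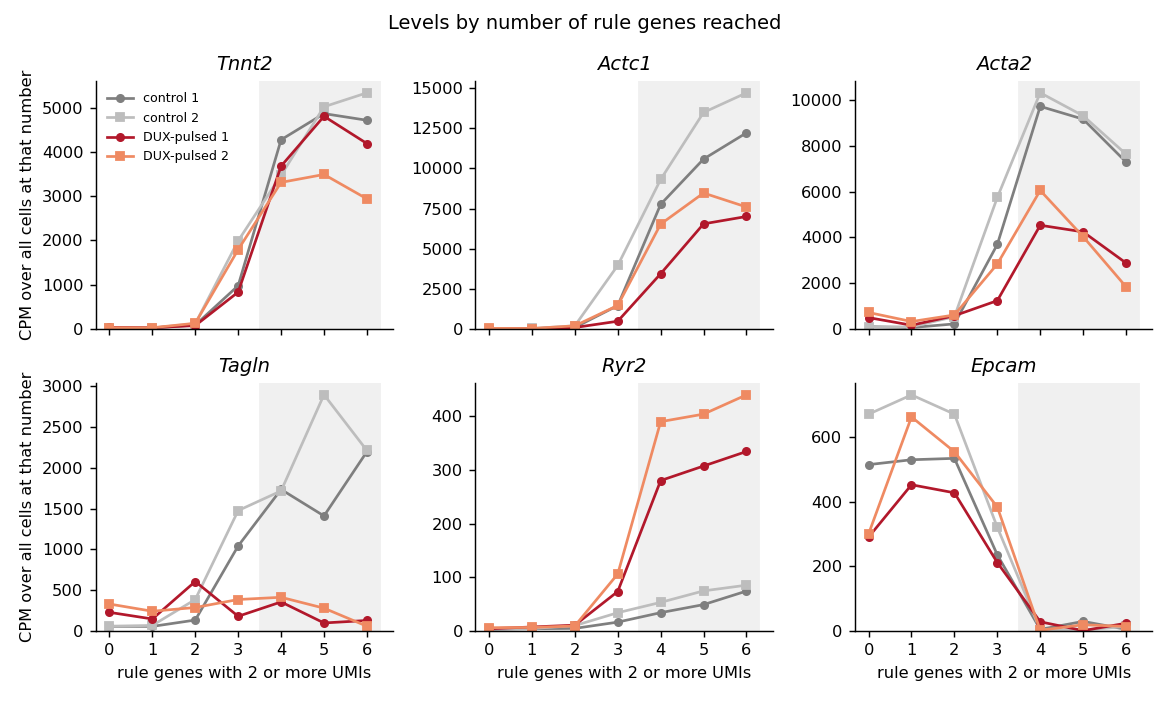
CPM over all kept cells (y axis, linear, one scale per gene) by the number of rule genes with 2 or more UMIs (x axis) for Tnnt2, Actc1, Acta2, Tagln, Ryr2 and Epcam, with one line per library and the members shaded. Epcam dropped from 275 CPM at 3 genes to 11.2 CPM at 4 over all libraries, while the Acta2, Tagln and Ryr2 lines of the DUX-pulsed libraries ran apart from those of the controls among members.

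Members also varied among themselves. By the Fano factor (variance over mean of UMIs per member after thinning to 10000 UMIs, averaged over libraries), the most variable genes at 100 CPM or more were Malat1 (73.4), Rbp4 (53.7), Myl2 (27.4), Acta2 (25.1), Actc1 (24.5), the imprinted gene Mest (23.7), Myh7 (23.0), Ttn (22.6), Ankrd1 (22.3) and Acta1 (17.7), against a median of 1.25 over 1407 genes. For Rbp4, a retinol carrier secreted by endoderm, the factor ran from 1.07 to 81.3 over the libraries. As a description across the members of a library, which share depth and preparation, Spearman's rho for Myl2 with Myl3 was 0.29 to 0.55, for Myh7 with Ttn 0.38 to 0.57 and for Tnni3 with Myl2 0.20 to 0.40. Myl2 and Acta2 ran the other way at -0.30 to -0.18. Tnni3 and Tnni1, the exchange partners, were close to unrelated at -0.047 to -0.011. Pairs within the rule use the genes that chose these cells, and some were weaker than those above. Tnni3 with Ttn ran from -0.13 to 0.16, Tnni3 with Myh7 from -0.026 to 0.19 and Myl3 with Ttn from -0.018 to 0.17.

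To compare the groups within members, UMIs were summed per library and tested with edgeR's quasi-likelihood test with Benjamini-Hochberg adjustment over 11202 genes. At an adjusted p under 0.05, 849 genes were higher in DUX-pulsed members (7.58% of genes tested) and 755 were lower (6.74%). The 2 libraries of a group lay on one side of both libraries of the other for 1599 of these 1604 genes and for 55.5% of all genes tested. The genes counted as higher include Tnni3 and Myl3 of the rule, which stayed in the fit. Their calls are not read as a result. Of the calls 52.9% were higher, a share that was 64.2% with upper quartile scaling (1110 higher, 620 lower), which moved the median of all genes from 0.0041 to 0.099, and 45.3% without the shifted chromosome regions described next (516 higher, 622 lower). In members with all 6 genes 332 were higher and 348 lower, and 590 of the 1604 genes passed there in the same direction. In the sums, fewer expressing cells and less RNA per cell cannot be told apart, and how far the different filling of the rule enters the calls was not tested beyond the fit on members with all 6 genes. Genes of the lists named here other than by rank were chosen after their values were seen. DUX-pulsed members held 17376585 UMIs against 4309779 in controls. A gene near 0 in controls could therefore pass the filter on low counts through the DUX-pulsed libraries alone, and could hardly be called lower. Genes such as Myom2, Sln, Kcnj3, Nog, Col3a1 and the erythroid genes did so, and the list counts of higher genes include them.

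Part of these calls sat in whole chromosome regions that also moved in cells outside the members. In windows of 50 neighbouring genes the other kept cells showed 6 regions built from windows with a median log2 fold change beyond 0.5, and the medians over all genes of a region were 0.531 to 1.001 for the higher and -0.597 to -0.493 for the lower ones. Chromosome 13 from 3478230 to 119790889 had a median of 1.001 in other kept cells and 0.957 in members, with 211 of its 418 genes higher in members and 5 lower. Chromosome 4 from 129189760 to 156247616 gave 0.902 and 0.885, with 126 of 255 genes higher. The other higher region lay on chromosome 14, and the 3 lower ones on chromosome 5 (2) and chromosome 16, with medians in members from -0.705 to -0.378 for the lower ones. Outside the regions 493 genes were higher and 670 lower, with a median of -0.02. The Y-linked genes Eif2s3y, Ddx3y and Uty had 0 UMIs in control members and were at least 23.6-, 13.9- and 7.69-fold higher in DUX-pulsed members, taking 3 counts over the group as the floor. What these regions have to do with the genes in them was not tested, and genes lying in one are marked in the text. Whether the control and DUX-pulsed stem cells share their origin is not given in the sources used here. Any difference between the stem cells themselves would coincide with the groups. It cannot be told apart from the pulse, for genes outside the regions and for the member share too.

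Genes of the thick filament outside the rule showed few differences. Of 8 such genes tested, 1 was called higher and 0 lower by edgeR (1 and 1 at an unadjusted p under 0.05, 1 and 0 by DESeq2). The called gene was Myom2, an M-band protein with 0 UMIs in control members and 47 in DUX-pulsed members, at least 3.89-fold higher. It passed the filter on low counts through the DUX-pulsed libraries alone, so this count is not read as a rise of the list. Over all genes 7.58% were called higher and 6.74% lower. The median log2 fold change of the 8 genes was 0.13, but -0.16 in members with all 6 genes, where Myom2 was too low to be tested. Myl7 stood at 10788 and 8341 CPM in control members and 11643 and 10287 CPM in DUX-pulsed members, with overlapping groups (log2 fold change 0.20, SE 0.23, adjusted p = 0.643 by edgeR). Myl4 stood at 8461 and 8335 CPM against 6947 and 5073 CPM, lower in both DUX-pulsed libraries without passing the test (-0.48, SE 0.23, adjusted p = 0.181). Neither early light chain was therefore called.

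On the thin filament, leaving out Tnni3 of the rule, 1 of 13 genes was called higher and 3 lower, with a median of -0.23. The shares over all genes were 7.58% higher and 6.74% lower. Cardiac troponin T, Tnnt2, stood at 4701 and 4309 CPM in controls and 4553 and 3107 CPM in DUX-pulsed members (-0.23, SE 0.23, adjusted p = 0.568 by edgeR), and embryonic troponin I, Tnni1, at 2445 and 2039 against 2414 and 2011 CPM (-0.02, SE 0.22, adjusted p = 0.970). Both overlapped between the groups. Actc1 stood at 10161 and 11683 CPM in controls and at 6981 and 7711 CPM in DUX-pulsed members, lower in both but short of the threshold (-0.57, SE 0.22, adjusted p = 0.0984). Lmod2, a leiomodin that nucleates and lengthens thin filaments, fell from 104 and 126 CPM to 31.9 and 14.0 CPM (-2.31, SE 0.29, adjusted p = 2.05e-05 by edgeR). Its value was -3.00 without DUX-pulsed replicate 1 and -2.91 in members with all 6 genes. Tnnt1 fell from 325 and 234 CPM to 144 and 108 CPM (-1.15, SE 0.23, adjusted p = 0.00165 by edgeR) and by 2.08 on the log2 scale in members with all 6 genes. Tnni2, the fast skeletal troponin I, rose from 5.41 and 2.23 CPM to 26.4 and 14.9 CPM (2.35, SE 0.41, adjusted p = 0.000562 by edgeR), or 3.23 without control replicate 1. Skeletal actin Acta1 was called lower at -0.68, a call that ended in members with all 6 genes (adjusted p = 0.529 by edgeR) and without control replicate 1, control replicate 2 or DUX-pulsed replicate 2.

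**Figure D3:**
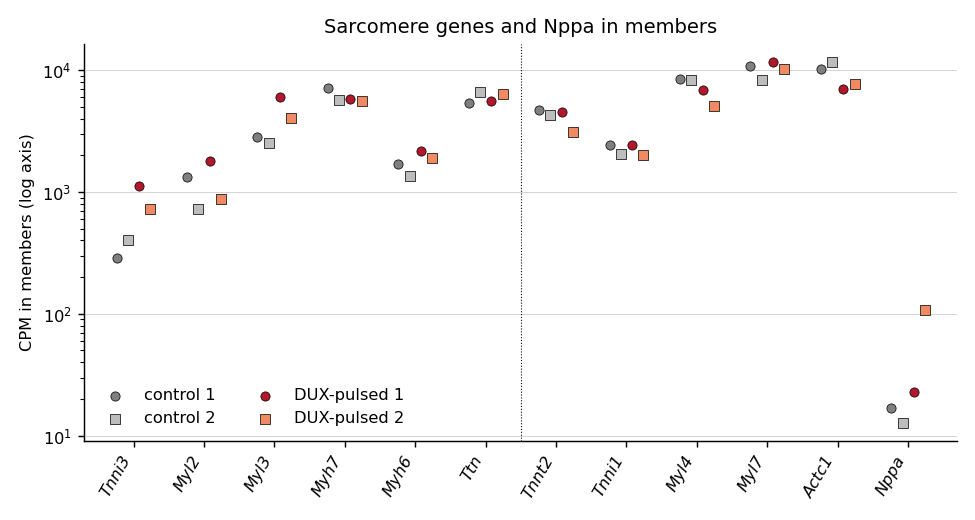
CPM summed over members (y axis, log scale) for the 6 genes of the rule (left of the dotted line) and for Tnnt2, Tnni1, Myl4, Myl7, Actc1 and Nppa, with one point per library. Tnni3 and Myl3 lay higher in both DUX-pulsed libraries, Actc1 lay lower in both, and the Nppa point of DUX-pulsed replicate 2, 108 CPM, stood apart from the other 3 at 12.8 to 22.7 CPM.

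Z-disc genes moved both ways: leaving out titin, 3 of 16 were called higher and 3 lower, against 7.58% and 6.74% of all genes. The Z-disc median was -0.43, and in members with all 6 genes 1 of 15 was higher and 5 lower. Ankrd1, a mechanically responsive ankyrin repeat protein, fell from 1344 and 1670 CPM in control members to 504 and 495 CPM (-1.59, SE 0.21, adjusted p = 5.24e-05 by edgeR). Its fall was 2.46 on the log2 scale in members with all 6 genes. Among the higher genes, Cmya5 rose from 2.32 and 2.78 CPM to 13.4 and 7.73 CPM, and Actn2, in the raised region of chromosome 13, from 376 and 361 CPM to 569 and 610.5 CPM. The small heat shock protein Cryab and the scaffold Pdlim5 were lower, at -0.90 and -0.68 on the log2 scale. The calls of Cmya5, Actn2 and Pdlim5 ended in members with all 6 genes (adjusted p = 0.0804, 0.452 and 0.0602 by edgeR), those of Actn2 and Pdlim5 also without control replicate 1, control replicate 2 or DUX-pulsed replicate 2, and that of Pdlim5 without DUX-pulsed replicate 1. The Cryab call ended without DUX-pulsed replicate 2.

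Smooth muscle and early fibre genes were lower in DUX-pulsed members. Of 10 tested with edgeR, 7 fell and 0 rose (8 and 1 at an unadjusted p under 0.05, 8 and 0 by DESeq2), with a median of -1.03, against 6.74% of all genes lower. Tagln, transgelin, was at 1745 and 2107 CPM in control members and at 153 and 143 CPM in DUX-pulsed members, 13.0-fold lower (-3.70, SE 0.23, adjusted p = 5.95e-09 by edgeR). Smooth muscle actin Acta2 was at 9036 and 8503 CPM against 3542 and 2749 CPM (-1.48, SE 0.23, adjusted p = 0.000214 by edgeR). Both control libraries lay above both DUX-pulsed libraries for each gene, and smooth muscle myosin Myh11, at 37.1 and 81.3 CPM in controls, had 0 UMIs in the 654 DUX-pulsed members, at least 325-fold lower. Calponin Cnn1 fell from 325 and 321 CPM to 103 and 91.5 CPM. The light chain Myl9 fell from 1205 and 1249 CPM to 623 and 546 CPM, Cald1 from 234 and 233 to 122 and 112 CPM, and Myl6 from 3084 and 2677 to 1817 and 1502 CPM. The log2 fold changes of these were -1.73, -1.07, -0.99 and -0.80. Of the 7, the call of Myl6 alone ended when a library was left out (control replicate 1, DUX-pulsed replicate 1 or DUX-pulsed replicate 2). Among members with all 6 genes 7 were again lower, with Tagln at -4.52 and Acta2 at -1.60.

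The remaining tested genes of that list were desmin, Des (-0.66, SE 0.22, adjusted p = 0.0519 by edgeR), Smtn (0.82) and Tpm2 (0.17), none of them called. Thinned to 10000 UMIs, a Tagln UMI was found in 97.9% and 96.6% of control members and in 31.5% and 29.7% of DUX-pulsed members, whereas an Acta2 UMI was found in 98.9%, 100%, 94.2% and 94.1%. The median UMIs per thinned member were 11.5 and 16 against 0 and 0 for Tagln, and 83 and 83 against 24 and 16.5 for Acta2. These shares fall with the level per cell as well as with the number of expressing cells. In the other kept cells Tagln went the other way, at 71.4 and 87.3 CPM in controls and 241 and 301 CPM in DUX-pulsed libraries. Those cells mix types: 3.06% and 1.87% of them in controls and 16.7% and 22.4% in DUX-pulsed libraries met the mesenchyme rule. Cell make-up and level per cell cannot be told apart there, which holds for every level given for other kept cells. The summed level of 14 mesenchyme markers in members was 1388 and 1659 CPM in controls and 1487 and 1897 CPM in DUX-pulsed members, overlapping between the groups.

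The promoters of 3 of these muscle genes are printed because they carry a CArG box. This element is bound by serum response factor, which acts in both smooth and striated muscle. Of the tested genes, Actc1 was short of the threshold and Myl9 was lower. Myl3 stood higher in DUX-pulsed members, but it belongs to the rule and its level carries no test. The sequences are RefSeq promoters of GRCm38.p6, read 5′ to 3′ on the strand of the gene, with the box in capitals. The stretches are chr9:110763543-110763662 (plus strand) for Myl3, chr2:114052876-114052972 (minus strand) for Actc1 and chr2:156775253-156775372 (plus strand) for Myl9, all upstream of the RefSeq start, with the first base of the box at -85, -47 and -161.
Myl3: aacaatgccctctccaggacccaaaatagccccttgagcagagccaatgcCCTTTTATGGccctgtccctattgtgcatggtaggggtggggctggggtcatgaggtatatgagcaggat
Actc1: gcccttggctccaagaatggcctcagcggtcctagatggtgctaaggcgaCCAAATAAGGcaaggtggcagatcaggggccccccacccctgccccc
Myl9: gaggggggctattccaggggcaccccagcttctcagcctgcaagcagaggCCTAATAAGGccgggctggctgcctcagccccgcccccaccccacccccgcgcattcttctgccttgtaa
The box was searched as CC, 6 bases of A or T, then GG, on both strands from 250 bases before to 50 after each start. It was present in 535 of 32851 promoters (1.63%). Counted by gene, with a match in any promoter of the gene, it was in 150 of 8760 tested genes with a promoter entry (1.71%). By the same count it was in 2 of 9 smooth muscle list genes (Myl6, Myl9), 3 of 12 thin filament genes (Acta1, Actc1, Nebl) and 1 of 6 rule genes (Myl3). Of the 7 smooth muscle genes called lower, 5 had a promoter entry, so nothing is known here for the others. Of genes called higher, among which Myl3 of the rule is counted, 14 of 658 had it (2.13%), and of genes called lower 14 of 561 (2.50%). A match is a description of these letters only.

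Of 19 calcium handling genes 5 were called higher and 1 lower, against 7.58% and 6.74% of all genes, with a median of 0.14. In members with all 6 genes 2 of 18 were higher and 1 lower, and of the 5 higher genes Ryr2 and Srl kept the call with each library left out. Ryr2, the calcium release channel of the sarcoplasmic reticulum, rose from 50.6 and 66.3 CPM in control members to 345 and 425 CPM in DUX-pulsed members, 6.59-fold (2.73, SE 0.24, adjusted p = 2.14e-07 by edgeR). Both DUX-pulsed libraries were far above both controls, and in members with all 6 genes the value was 2.33. Ryr2 lies in the raised region of chromosome 13, whose median in members was 0.957. Sarcalumenin, Srl, a calcium-binding protein of the same compartment, rose from 31.7 and 21.2 CPM to 60.1 and 94.9 CPM (1.53, SE 0.26, adjusted p = 0.000552 by edgeR) and lies in no such region. The kinase Camk2d was called higher at 0.84 (102 and 131 against 187 and 231 CPM) and the calcium sensor S100a1 at 0.90 (38.3 and 25.1 against 61.8 and 58.0 CPM), and both calls ended in members with all 6 genes. The Camk2d call also ended without control replicate 1 or DUX-pulsed replicate 2 and the S100a1 call without control replicate 2. Sarcolipin, Sln, a regulator of the calcium pump in atrial muscle, had 0 UMIs in control members and 40 in DUX-pulsed members, at least 3.31-fold higher. Its call ended without control replicate 1, and it entered the test through the DUX-pulsed libraries alone.

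In the opposite direction, Cacna1d, the L-type calcium channel of pacemaker and atrial cells, fell from 106 and 99.7 CPM to 19.3 and 20.7 CPM (-2.36, SE 0.21, adjusted p = 4.09e-07 by edgeR). The calcium pump Atp2a2, in a lowered region of chromosome 5, was at 1161 and 1483 CPM against 1019 and 1181 CPM (-0.26, SE 0.21, adjusted p = 0.473). Of 15 pacemaker and ion channel genes 3 were called higher and 1 lower by edgeR, as also at an unadjusted p under 0.05, and 0 either way by DESeq2. Of all genes edgeR called 7.58% higher and 6.74% lower. Shox2, a transcription factor of the sinus node, was lower at 21.3 and 49.6 CPM in controls against 12.9 and 3.73 CPM (-2.02, SE 0.41, adjusted p = 0.00234 by edgeR, 0.212 by DESeq2). Its value ran from -3.16 without DUX-pulsed replicate 1 to -1.33 without control replicate 2, and was -1.39 without DUX-pulsed replicate 2. The pacemaker channel gene Hcn4 was at 56.8 and 57.4 CPM against 45.9 and 41.9 CPM (-0.38, SE 0.21, adjusted p = 0.255), lower in both DUX-pulsed libraries and past the threshold in members with all 6 genes (-0.91, adjusted p = 0.0418 by edgeR). The gap junction gene Gja1 (1.16) and Kcnj3 were called higher, but neither of them in members with all 6 genes (adjusted p = 0.164 and 0.233 by edgeR). Gja1 stood at 9.28 and 7.80 CPM against 21.2 and 17.3 CPM, and its call ended without control replicate 2. Kcnj3 had 1 UMI in control members and 62 in DUX-pulsed members, which makes the level 15.4 times as high (exact 95% interval from counting error alone 2.66 to 617). It too entered the test through the DUX-pulsed libraries alone.

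Among 23 cardiac transcription factors and cofactors 2 were higher and 5 lower, against 7.58% and 6.74% of all genes, with a median of -0.24. The core factor Nkx2-5 was at 244 and 306 CPM in controls and 221 and 272 CPM in DUX-pulsed members, overlapping (-0.16, SE 0.21, adjusted p = 0.700 by edgeR), and Gata4 at 80.4 and 105 CPM against 57.2 and 73.6 CPM (-0.50, SE 0.22, adjusted p = 0.146). Hopx, a homeodomain cofactor of cardiomyocyte differentiation, rose from 6.96 and 15.0 CPM to 44.9 and 49.6 CPM (2.17, SE 0.29, adjusted p = 5.64e-05 by edgeR), with 2.75 without control replicate 2. Irx4, a factor of ventricular identity in the raised region of chromosome 13, rose from 3.09 and 2.23 CPM to 21.8 and 19.5 CPM (2.91, SE 0.37, adjusted p = 2.85e-05 by edgeR). For both genes the DUX-pulsed libraries stood clear of the controls. The early factors Hand1 and Hand2 were at 183 and 197 CPM and at 152 and 144 CPM in controls, and at 102 and 93.3 CPM and 80.8 and 69.7 CPM in DUX-pulsed members (-0.96 and -0.98, adjusted p = 0.00320 and 0.00318 by edgeR). Gata5 fell from 69.6 and 45.7 to 29.5 and 30.5 CPM (-0.96). In members with all 6 genes Hand1 showed no fall (0.025, adjusted p = 0.97), Hand2 lost its call (-0.72, adjusted p = 0.0934), and Hopx and Irx4 kept theirs at 1.44 and 2.17. The Gata5 call ended without control replicate 1.

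Chamber markers did not point one way. Of 12 atrial markers 5 were higher and 2 lower, and of 10 ventricular markers outside the rule 1, Irx4, was higher and 3 lower, while DESeq2 called 2 atrial markers higher and 1 lower. The edgeR shares over all genes were 7.58% higher and 6.74% lower. Adm, adrenomedullin, a peptide hormone, rose from 12.0 and 16.2 CPM to 64.7 and 77.3 CPM (2.36, SE 0.25, adjusted p = 3.49e-06 by edgeR), with 1.56 in members with all 6 genes. Myl1, a light chain of fast muscle also found in atria, was at 0.77 and 1.11 CPM against 6.57 and 5.999 CPM (2.75, SE 0.58, adjusted p = 0.00287), a call that ended in members with all 6 genes. Nppa, atrial natriuretic peptide, was at 17.0 and 12.8 CPM in controls and at 22.7 and 108 CPM in DUX-pulsed members, on chromosome 4 in a raised region. It was called (2.10, SE 0.48, adjusted p = 0.00547 by edgeR), but DUX-pulsed replicate 2 set the value: without it the log2 fold change was 0.61 (adjusted p = 0.262), without DUX-pulsed replicate 1 it was 2.86, in members with all 6 genes 1.25 (adjusted p = 0.306), and DESeq2 gave an adjusted p of 0.237. Dkk3 was called higher at 0.87 and the peptide-processing enzyme Pam lower at -0.85, with calls lost without a library (control replicate 1 or DUX-pulsed replicate 2 for Dkk3, control replicate 2 or DUX-pulsed replicate 1 for Pam), and that of Dkk3 in members with all 6 genes. On the ventricular side Lbh fell from 217 and 267 CPM to 107 and 136 CPM (-0.99) and Cited1 from 284 and 135 to 129 and 74.0 CPM (-1.05), whose value without control replicate 1 was -0.40. Of 11 natriuretic peptide and stress genes 3 were higher and 4 lower, with the stress factor Atf3 at 45.2 and 55.1 CPM in controls and 22.6 and 10.3 CPM in DUX-pulsed members (-1.59, and -2.24 without DUX-pulsed replicate 1). In the same list the stress factor Ddit3 rose from 25.9 and 31.7 to 55.4 and 59.6 CPM (1.01) and the small heat shock protein Hspb7, in the raised region of chromosome 4, from 144 and 153 to 247 and 316 CPM (0.92). Both calls ended without control replicate 1 and in members with all 6 genes (adjusted p = 0.1991 and 0.1997 by edgeR). The Lbh call ended without control replicate 2, and the Cited1 call without control replicate 1 or DUX-pulsed replicate 2.

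Fatty acid and creatine genes were seldom called, while the called glycolysis and hypoxia genes were all higher. Of 18 fatty acid and creatine metabolism genes 1 was called higher and 0 lower by edgeR (6 and 3 at an unadjusted p under 0.05, 2 and 0 by DESeq2). Over all genes edgeR called 7.58% higher and 6.74% lower. The median of this list was 0.22, and 0.015 in members with all 6 genes. The called gene was myoglobin, Mb, the oxygen store of muscle. It rose from 15.8 and 8.91 CPM to 41.4 and 42.9 CPM (1.72, SE 0.27, adjusted p = 0.000242 by edgeR), with 2.50 in members with all 6 genes. Of 20 glycolysis and hypoxia genes 5 were higher and 0 lower by edgeR (6 and 0 at an unadjusted p under 0.05, 5 and 0 by DESeq2), against 7.58% of all genes higher, with a median of 0.22. The count was 3 of 20 in members with all 6 genes. Enolase, Eno1, rose from 795 and 860 CPM to 2350 and 2440 CPM (1.53, SE 0.21, adjusted p = 6.97e-05 by edgeR), but it lies in the raised region of chromosome 4, shares sequence with copies elsewhere in the genome, and was also higher in the other kept cells (454 and 460.5 against 1122 and 1176 CPM). Outside the regions Ndrg1 rose from 8.12 and 7.24 to 19.4 and 32.9 CPM (1.75, and 3.08 in members with all 6 genes), Pdk1, which restrains pyruvate oxidation, from 85.4 and 76.3 to 153 and 203 CPM (1.13), and Vegfa from 69.95 and 90.2 to 129 and 227 CPM (1.16). Pgk1 was called at 0.72. The Pgk1 and Vegfa calls ended in members with all 6 genes and without DUX-pulsed replicate 2, and that of Pgk1 also without control replicate 2 or DUX-pulsed replicate 1.

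The called cell cycle genes were all higher. Of 20 tested with edgeR, 10 were higher and 0 lower (12 and 0 at an unadjusted p under 0.05, 10 and 0 by DESeq2, 6 and 0 without control replicate 2), with a median log2 fold change of 0.68, against 7.58% of all genes higher. Mki67, a marker of cycling cells, was at 47.9 and 57.9 CPM in control members and 123 and 121 CPM in DUX-pulsed members (1.21, SE 0.22, adjusted p = 0.000753 by edgeR). Top2a went from 119 and 137 to 245 and 266 CPM (1.001), Ccna2 from 39.4 and 36.8 to 77.9 and 100.1 CPM (1.22) and Rrm2, which supplies DNA precursors, from 6.57 and 10.0 to 41.1 and 26.5 CPM (2.07). Ccnb1, on chromosome 13, went from 33.2 and 40.7 to 98.6 and 106 CPM (1.48) and Ccnd1 from 4.25 and 2.23 to 13.0 and 15.5 CPM (2.06). In every one of these genes both DUX-pulsed libraries were above both controls. Aurkb, Ccnb2, Cenpf and the cell cycle inhibitor Cdkn1a were also called, and each of these calls ended in at least 1 fit without a library: control replicate 2 for all of them, control replicate 1 for Cenpf and DUX-pulsed replicate 1 for Cdkn1a. Those of Aurkb and Cdkn1a also ended in members with all 6 genes. Genes of DNA replication, Mcm2, Mcm3, Mcm5, Pcna and Tyms, were not called, with values from -0.05 to 0.34. With all 6 genes required, 11 of 20 were higher, with a median of 1.37, and the values were 2.22 for Mki67, 1.93 for Top2a, 2.26 for Ccna2, 2.68 for Rrm2, 2.52 for Ccnb1 and 2.06 for Cenpf. Ccnd1 stayed called there on 1 control UMI. Thinned to 10000 UMIs, a Mki67 UMI was found in 18.1% and 20.3% of control members and 31.2% and 26.7% of DUX-pulsed members. In the other kept cells Mki67 stood at 124 and 120 CPM in controls and 182 and 135 CPM in DUX-pulsed libraries.

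**Figure D4:**
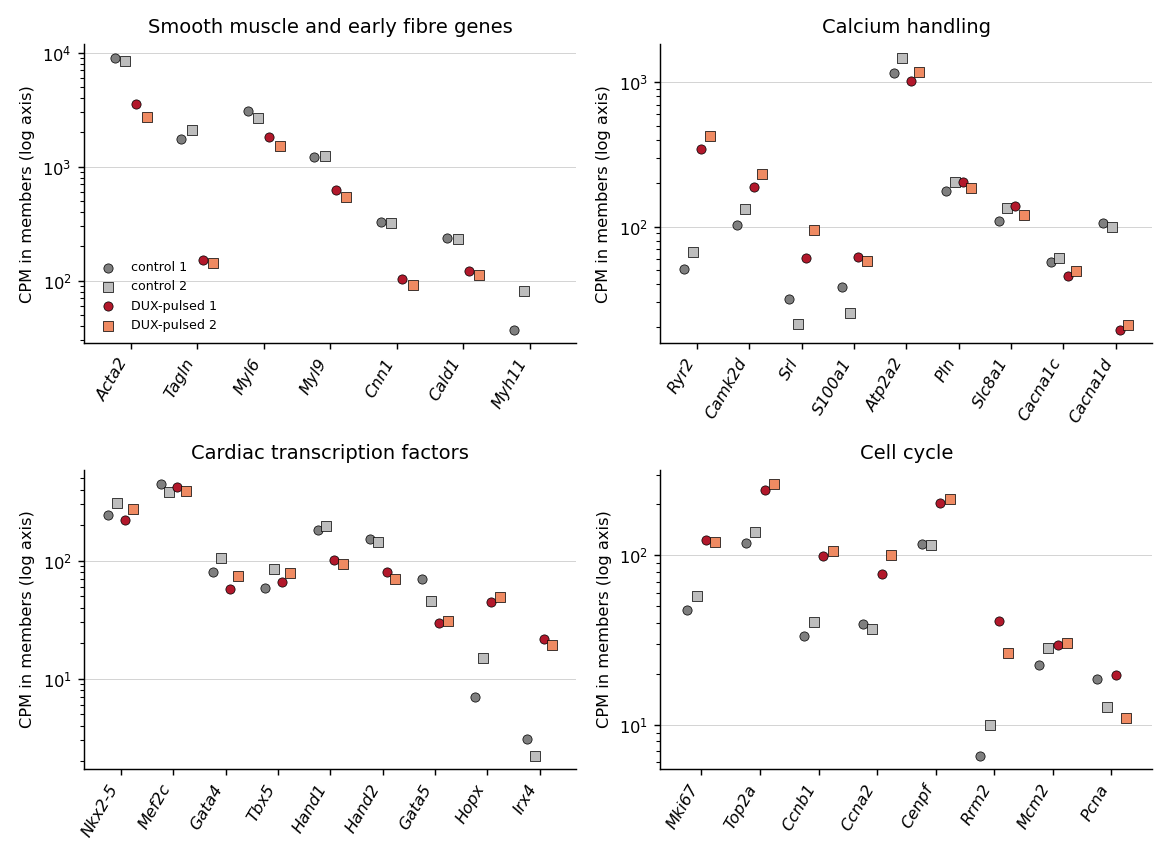
CPM summed over members (y axes, log scales) of genes for smooth muscle and early fibres, calcium handling, cardiac transcription factors and the cell cycle, with one point per library; Myh11 has no DUX-pulsed points because it had 0 UMIs there. Tagln at 153 and 143 CPM in DUX-pulsed members against 1745 and 2107 CPM in controls shows the widest gap drawn, and the cell cycle genes up to Rrm2 lie higher in both DUX-pulsed libraries.

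Of 23 genes of signalling in heart development 3 were higher and 9 lower, against 7.58% and 6.74% of all genes, with a median of -0.50. The counts were 2 and 3 of 21 in members with all 6 genes. Without control replicate 2 the numbers were 2 and 4 of 22, and without DUX-pulsed replicate 2 they were 1 and 7 of 21. Bmp2, a ligand of cardiac induction and cushion formation, fell from 77.3 and 159 CPM to 19.4 and 25.7 CPM (-2.38, SE 0.28, adjusted p = 1.11e-05 by edgeR), or -1.79 without control replicate 2. The receptor Notch1 fell from 18.9 and 23.4 to 2.91 and 1.87 CPM (-3.10, SE 0.34, adjusted p = 4.78e-06 by edgeR), and its ligand Jag1 from 39.4 and 52.4 to 15.1 and 21.9 CPM (-1.31). The guidance cue Sema3a fell from 24.3 and 24.5 to 8.51 and 9.60 CPM (-1.43). For these 4 genes all control values lay above all DUX-pulsed values, although in members with all 6 genes the Jag1 call ended (adjusted p = 0.226) and Notch1 was too low to be tested. The BMP antagonist Nog rose from 0.39 and 1.11 to 6.14 and 6.80 CPM (adjusted p = 0.00170 by edgeR), 3 UMIs against 108, which is 8.93 times as high (counting error alone allows 2.97 to 43.97), with no call in members with all 6 genes (adjusted p = 0.240). Fgf10, in the raised region of chromosome 13, rose from 12.4 and 17.8 to 48.5 and 55.9 CPM (1.81). Vcam1 and Corin were called lower at -1.75 and -1.55, but without control replicate 2 they were at -0.93 and -0.92 and lost the call, that of Corin also in members with all 6 genes, where Vcam1 was at -2.51. The calls of Bmp4, Fgf8 and Hey1 also ended with a library left out (any 1 of the 4 for Bmp4, either control or DUX-pulsed replicate 2 for Fgf8, control replicate 2 or DUX-pulsed replicate 2 for Hey1), those of Bmp4 and Fgf8 in members with all 6 genes too, where Hey1 was at 1.90, and Erbb3 was too low to be tested in these fits.

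Of the 10 largest rises among genes at 50 CPM or more, 6 lay in the shifted regions. Espn, espin, an actin-bundling protein on chromosome 4, went from 3.86 and 0.56 CPM to 54.9 and 87.3 CPM (4.83, SE 0.41, adjusted p = 2.08e-07 by edgeR), with 4.19 without control replicate 2. Without control replicate 1, and in members with all 6 genes, it stayed called on 1 control UMI. The phosphatase Ptp4a3, outside the regions, went from 37.1 and 31.2 to 215.5 and 231 CPM (2.70, SE 0.23). Stmn1, a microtubule regulator of dividing cells on chromosome 4, went from 60.7 and 54.0 to 360 and 229 CPM (2.36). The histone gene Hist1h2ae, which has near-identical copies among which reads can be split (2.54, with 1.91 without DUX-pulsed replicate 1) and Gkap1 (2.01) lie in the raised region of chromosome 13. Espn, Ptp4a3 and Stmn1 had both DUX-pulsed libraries above both controls.

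Of the 10 largest falls, 1 lay in the shifted regions. Lrmda went from 57.2 and 42.9 CPM to 1.51 and 0.13 CPM (-5.80, SE 0.42, adjusted p = 2.65e-08 by edgeR), with -5.01 without DUX-pulsed replicate 2, while without DUX-pulsed replicate 1 the call rested on 1 DUX-pulsed UMI. Tdgf1, cripto, a Nodal co-receptor of early heart and epiblast, went from 1020 and 1125 to 183 and 127 CPM (-2.79, SE 0.23, adjusted p = 1.91e-07 by edgeR). Wnt5a, a ligand of the noncanonical WNT pathway, went from 112 and 137 to 20.03 and 21.6 CPM (-2.58, SE 0.22, adjusted p = 2.08e-07 by edgeR), with -1.68 in members with all 6 genes. The calmodulin regulator Pcp4, in the lowered region of chromosome 16, went from 89.3 and 49.6 to 6.14 and 1.9998 CPM (-4.06, with -5.08 without DUX-pulsed replicate 1). Mab21l2 (-2.46) and Cd59a (-2.37), an inhibitor of complement, completed the list with Myh11, Tagln, Bmp2 and Cacna1d. All 10 were called in members with all 6 genes and in every fit with 1 library left out in which they could be tested, which for Myh11 was 2 of 4.

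Erythroid RNA in members was higher in DUX-pulsed libraries. Of 13 endoderm genes 1 was called higher and 1 lower, against 7.58% and 6.74% of all genes. All 4 erythroid genes tested were called higher (3 by DESeq2), of which Hbb-bh1 lost its call without control replicate 2. Each had 0 to 7 UMIs per control library and so passed the filter on low counts only through the DUX-pulsed libraries. The filter thus largely set their direction, and the count of 4 is not read as a result. Levels were low: the 10 erythroid markers summed to 3.81 and 8.92 CPM in control members and 62.6 and 25.4 CPM in DUX-pulsed members. In the other kept cells the same sum was 573 and 994 CPM in controls and 3072 and 6757 CPM in DUX-pulsed libraries. Among members with all 6 genes Hbb-y and Hba-x, the 2 that could be tested, were not called by edgeR (adjusted p = 0.135 and 0.580). Afp, alpha-fetoprotein of yolk sac and liver-type endoderm, went from 6.18 and 7.24 CPM to 51.4 and 89.6 CPM in members (3.40, SE 0.33, adjusted p = 8.94e-07 by edgeR), and from 648 and 760 to 1493 and 1770 CPM in other kept cells. With the top 5% of doublet scores removed the Afp value in members was 0.93 (adjusted p = 0.0984). The other call was Spink1, at 67.6 and 73.0 against 41.4 and 22.9 CPM in members (-1.12) and 6710 and 6506 against 1002 and 937 CPM in other kept cells. Its call ended in members with all 6 genes and without DUX-pulsed replicate 2. The 14 endoderm markers summed to 417 and 309 CPM in control members and 521 and 412 CPM in DUX-pulsed members, which overlapped. How far RNA from other cells enters the remaining results was not tested.

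Mesenchyme markers split, with 2 of 9 higher and 3 lower, against 7.58% and 6.74% of all genes. The proteoglycan Vcan, which heart muscle also makes in the embryo and which lies in the raised region of chromosome 13, rose from 405 and 432 to 991 and 1266 CPM (1.43, SE 0.22, adjusted p = 0.000162 by edgeR). Col1a2 fell from 58.0 and 72.4 to 18.95 and 30.8 CPM (-1.39, SE 0.24, adjusted p = 0.000662 by edgeR). In other kept cells, where more DUX-pulsed cells met the mesenchyme rule, it stood higher in DUX-pulsed libraries (170 and 562 CPM) than in controls (50.7 and 59.1 CPM). Col1a1 fell likewise (-1.63, with -1.03 without control replicate 2, -2.30 without DUX-pulsed replicate 2 and -2.34 in members with all 6 genes), while Col3a1 rose from 1.93 and 1.67 to 8.40 and 15.6 CPM (2.69), a call lost in members with all 6 genes. Sparc, a matrix-binding protein, fell from 840 and 890 to 452 and 444 CPM (-0.95). No macrophage gene passed the filter on low counts, which asks for counts in at least 2 libraries. The 10 macrophage markers summed to 0.381 and 0 CPM in control members. In DUX-pulsed replicates 1 and 2 the sums were 38.8 and 2.68 CPM, so such RNA came mainly from replicate 1. By edgeR and by DESeq2 0 of 3 epicardial and 0 of 5 endothelial genes were called, against 3 and 2 at an unadjusted edgeR p under 0.05. Of 2 skeletal muscle genes tested Tnni2 was called higher, and Mylpf was not (-0.18, SE 0.25, adjusted p = 0.719 by edgeR). Of 3 neural genes tested Ncam1 was called higher, and of 2 pluripotency genes Klf4 was called lower, both with calls that ended when a library was left out (control replicate 2 or DUX-pulsed replicate 2 for Ncam1, any 1 of the 4 for Klf4) and in members with all 6 genes (adjusted p = 0.0939 and 0.275 by edgeR).

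**Figure D5:**
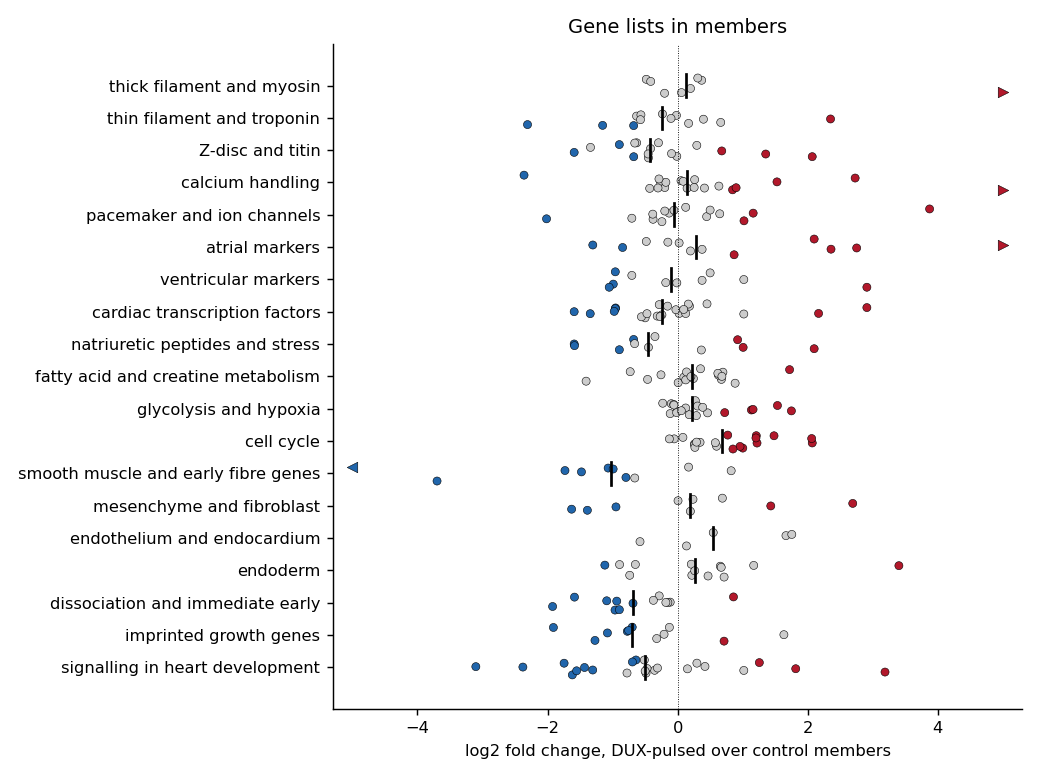
Log2 fold change, DUX-pulsed over control members (x axis), of each gene tested in the lists with at least 5 tested genes, with called genes in red (higher) or blue (lower), others in grey, values beyond 5 either way as triangles at the edge, and a black bar for the list median; the rule's genes are left out of the points and medians. The smooth muscle median of -1.03 and the cell cycle median of 0.68 are the farthest from 0 on either side.

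Whether the difference between DUX-pulsed and control cells was itself different in members and in the other cardiac cells was tested as an interaction in edgeR with the library as a block. Of 11410 genes 62 passed (0.543%), 22 with a more positive and 40 with a more negative difference in members. The other cardiac cells were few, 15 to 37 per library, and 10.8% to 33.3% of them had a doublet score in the top 5%, against 0% to 3.70% of members. Tagln was at 1802 and 2177 CPM in control members and 158 and 151 CPM in DUX-pulsed members, but at 1319 and 1820 CPM against 598 and 1265 CPM in the other cardiac cells, and the difference of the log2 fold changes was -2.87 (SE 0.28, adjusted p = 0.000186 by edgeR). Its value without DUX-pulsed replicate 2 was -2.28. In fits without control replicate 1 or without control replicate 2, 0 genes passed by edgeR (419 and 643 at an unadjusted p under 0.05), without DUX-pulsed replicate 2 there were 22, and DESeq2 on all libraries called 25.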

How the data were processed

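UMI counts per gene and cell were used as deposited by the authors: whole numbers for 20284 genes and 10090 cells of 4 day 9 libraries, with Cell Ranger 2.2.0, STAR and mm10 named per the submitters' processing notes. The group was read from the start of each cell's column name and the replicate from the number at its end, and 0 columns were of no known sample. Members and gene lists were chosen with earlier results of these data known. Counts of members were summed per library (1682022 to 9901968 UMIs), and a gene was tested if 2 or more libraries had 10 counts and all together had 40, with edgeR 4.0.16 (limma 3.58.1, R 4.3.3; TMM scaling, quasi-likelihood test, no replicate block, Benjamini-Hochberg threshold 0.05) after a check on simulated data. CPM is scaled by TMM except where raw totals are named and in the interaction, which has its own scaling. DESeq2 1.42.0 was an alternative. Cells were handled with Python 3.11.15, numpy 2.4.6, pandas 2.3.3, scipy 1.17.1 and scanpy 1.11.5.

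Named genes were the 10 largest rises and 10 largest falls among called genes whose higher group averaged 50 CPM or more and whose groups did not overlap, without mitochondrial, ribosomal and predicted genes and the genes of the rule; the 2 genes with the smallest p in each of 25 lists; the 20 highest ratios to other kept cells and the 10 highest to other cardiac cells at 100 CPM or more; the 10 most variable genes at that level; the 6 smallest interaction p-values; and fixed sarcomere genes. A few genes that these rules name are not reported here. Gene positions are those of GENCODE vM21. Shifted regions were found in the other kept cells only, over 15794 of 15967 tested genes with a position, and hold 1345 genes. Scrublet, a doublet caller, marked 27 kept cells (0.304%) and is taken not to have worked, so no cell was removed, and removing the top 5% of scores is an alternative. With 2 libraries a group, p-values rest on little replication.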

Additional observations from a re-analysis of the deposited data

Results flagged for a closer look

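The difference between DUX-pulsed and control libraries was not the same in members and in other cardiac cells for the genes with the smallest p of the interaction, of which 5 are given here, tested in edgeR over 4 libraries with the library as a block. The difference of the log2 fold changes, members minus other cardiac cells, was -2.87 for Tagln (adjusted p = 0.000186), -2.94 for the potassium channel gene Kcnk3 (0.000212), 2.37 for the metallothionein Mt1 (0.000377), -1.61 for the imprinted noncoding RNA Meg3 (0.000874) and -2.19 for the collagen Col5a1 (0.00140).

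Kcnk3 stood at 58.7 and 84.0 CPM in control members and 25.2 and 26.0 CPM in DUX-pulsed members, and at 71.1 and 63.2 CPM against 169 and 207 CPM in other cardiac cells, so the groups parted in opposite directions. Meg3 was likewise lower in DUX-pulsed members (1265 and 1367 against 677 and 879 CPM) and higher in DUX-pulsed other cardiac cells (3203 and 3242 against 5866 and 5692 CPM). Col5a1 was at 216 and 284 against 48.6 and 81.5 CPM in members and at 102 and 210 against 150 and 203 CPM in other cardiac cells, where the groups overlapped. Mt1 was at 909 and 435 against 606 and 735 CPM in members, which overlapped, and at 2103 and 627 against 177 and 307 CPM in other cardiac cells.

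All 5 lost the call without control replicate 1 and without control replicate 2, where a single control library is assumed to vary like the DUX-pulsed ones. With the top 5% of doublet scores removed, Kcnk3 was at -1.04 and Col5a1 at -1.25, with adjusted p of 0.506 and 0.0613 by edgeR. Without DUX-pulsed replicate 2 Tagln was at -2.28 and kept its call. The part of doublets in these differences was not tested further.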

How the results depend on the processing

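The difference in member share, 16.01 percentage points, was 11.5 with all 6 genes required (chosen after seeing the data), 14.8 with at least 5, 10.9 under the stricter cell filter and 17.7 with the rule applied after thinning, and 15.3 to 16.7 with a library left out. Genes higher in DUX-pulsed members, 849, numbered 441 by DESeq2, 332 with all 6 genes, 502 under the stricter cell filter, 397 after thinning, 516 without the shifted regions and 539 to 609 with a library left out. Genes lower, 755, numbered 348 with all 6 genes, 420 under the stricter filter, 412 after thinning and 464 to 617 with a library left out. With the replicate block, 1737 were higher and 1727 lower. The deviations of same-numbered libraries from their group means correlated at r = 0.55 over 5779 genes, but 2 pairs share only a number. The interaction count, 62, was 25 by DESeq2, 213 with no filter on low counts, 142 with the top 5% of doublet scores removed and 0 to 72 with a library left out. Of 1884 alternatives for 133 named genes, 1625 kept direction and side of the threshold, 202 lost the call, 40 gained it and 17 changed sign. Of 111 named genes past the threshold that these fits could test, 66 stayed past it in every left-out fit. Changes of sign with all 6 genes were Hand1 at 0.025, Klf4 at 0.75 and Myl7 at -0.076. Under the stricter filter Mylpf was at 0.12 and Dnmt3b at -0.27. Tnni1 was at 0.075 with upper quartile scaling, 0.044 with no filter, 0.0048 with top doublet scores removed and 0.0059 without the regions. With a library left out the values ran from -0.61 to 0.19 for Mylpf, from -0.036 to 0.31 for Dnmt3b, from -0.50 to 0.041 for Tnnt2, from -0.15 to 0.14 for Tnni1 and from -0.29 to 0.020 for Nkx2-5. The cause of these changes was not tested, apart from fewer cells or libraries entering the smaller fits. Control members, 108 and 63 cells with 4309779 UMIs in all, set the depth: genes with 0 counts there are given only as bounds, and those with 1 to 3 as ratios with counting intervals.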

Other observations

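Immediate early and dissociation genes, which respond within minutes to stimulation and to tissue handling, were lower in DUX-pulsed members: 7 of 13 were called lower and 1 higher, with a median log2 fold change of -0.69, against 6.74% of all genes lower. Fos was at 240 and 300 CPM in control members and at 113 and 140 CPM in DUX-pulsed members (-1.09, SE 0.22, adjusted p = 0.00174 by edgeR's quasi-likelihood test). Jun was at 304 and 289 CPM against 167 and 137 CPM (-0.96, SE 0.21, adjusted p = 0.00343), and Egr1 at 250 and 335 CPM against 121 and 193 CPM (-0.90). Both control libraries lay above both DUX-pulsed libraries for these genes. Dusp1 (-0.94), Jund (-0.69), Hspa1a (-1.92) and Atf3 (-1.59) were lower too, while Ier3 was higher at 61.8 and 29.5 against 86.2 and 82.7 CPM (0.86). With a library left out Fos, Jun and Atf3 stayed called, and in members with all 6 genes 4 of the list were lower, Fos, Egr1 and Ier3 were not called (adjusted p = 0.297, 0.284 and 0.595 by edgeR), and Hspa1a was too low to be tested. The handling of the libraries is not given in the sources used here.

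Imprinted growth genes, which are expressed from a single parental copy, gave counts that 1 library set: 6 of 11 were called lower and 1 higher, against 6.74% and 7.58% of all genes, with a median of -0.70, but without control replicate 2 the counts were 1 lower and 2 higher. Peg10 was at 81.9 and 102 CPM in control members and 37.7 and 38.4 CPM in DUX-pulsed members (-1.27, SE 0.21, adjusted p = 0.000411 by edgeR), and it alone stayed called with each library left out. Plagl1 was at 269 and 480 CPM against 154 and 199 CPM (-1.08), a call that ended without control replicate 2 (adjusted p = 0.228). Meg3 (-0.77), H19 (-0.70), Ndn (-0.75) and Dlk1 (-1.91, with -2.61 without control replicate 1 and -0.81 without control replicate 2) were lower, and the receptor gene Igf2r was higher at 32.5 and 45.1 against 58.0 and 67.9 CPM (0.71). In members with all 6 genes 2 of 9 were lower. Plagl1, Meg3, Ndn and Igf2r were not called there (adjusted p = 0.0982, 0.532, 0.327 and 0.128 by edgeR), and Dlk1 was too low to be tested.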
